A study of Homo sapiens with 6 samples.

Results

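The 30 genes described here are targets and regulators of p53. MDM2, MDM4, PPM1D, TRIAP1, PHLDA3 and CCNG1 were classed together as regulators of p53 and feedback. The other 24 are genes of growth arrest, cell death, DNA repair, metabolism and the cell membrane that p53 is known to act on. The 30 genes were chosen by name, from knowledge of the pathway and with earlier results of these data known. All 30 had a row among the 58395 genes of the deposited count table. The libraries came from H1, an established human embryonic stem cell line whose labelled tissue of origin is the blastocyst. RNA-seq counts were analysed for 6 libraries: 2 of wild-type cells (WT) and 2 of each of a pair of BRPF1 knockout sets, named KO 1# and KO 2#. BRPF1 is a scaffold protein of histone acetyltransferase complexes. The labels name no treatment, time point or further allele in any group. They do not say whether 1# and 2# are clones, guides or something else, or whether the 2 libraries of a group came from separate cultures, so p-values measure the spread between these libraries, which may be technical.

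Each library held between 33421785 and 38098779 counts. The level of BRPF1 was 25.7 ± 3.68 CPM (read counts scaled to the size of the library, as described below) in WT (SD, n = 2) and 27.3 ± 3.73 in the knockout libraries (SD, n = 4), which differ by 0.08 on the log2 scale (adjusted p = 0.508) with the main scaling and by -0.66 (adjusted p = 7.145e-06) with plain library totals, so the labelled genotype could not be checked from the gene's total count. All libraries are labelled as embryonic stem cells, and in the knockout libraries the marker genes went against that label. The 10 pluripotency markers examined all fell, and their summed level was 7498 and 7722 CPM in WT against 106 to 163 CPM in the knockout libraries. POU5F1, a defining factor of pluripotent cells, averaged 1663 CPM in WT and 0.264 CPM in the knockout libraries. The 12 fibroblast and stromal markers all rose (THY1 only slightly, and it fell with plain library totals), with a summed level of 856 and 886 CPM in WT and 191042 to 209907 CPM in the knockout libraries. Of the 6 trophoblast markers, 4 rose and 1 fell (log2 fold change -6.485), and CGA had 0 counts in all 6 libraries. Their sum was 5.21 and 6.19 CPM in WT and 126 to 154 CPM in the knockout libraries. The sum of the 7 blood and endothelial markers was 113 and 114 CPM in WT and 12.6 to 25.4 CPM in the knockout libraries, with HBG1 and HBG2 at 0 counts everywhere. KDR made up most of that sum in WT and fell by 4.48 on the log2 scale, while 2 of the 5 tested rose (1 with library totals), among them PECAM1 by 6.19. The sum of the 6 neural markers was 183 and 210 CPM against 212 to 232 CPM, with 3 of the 4 tested higher (1 with library totals) and DCX lower by 4.99. Every comparison with WT below was made between libraries that differ in these markers, and the part of the markers' change in the changes of the p53 genes was not tested. In bulk RNA, fewer cells of a type and less RNA per cell cannot be told apart.

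The transcription factor p53 is held at a low level in unstressed cells by MDM2, a ubiquitin ligase that marks it for degradation, and by MDM4, which binds it and blocks its activity. When DNA damage or another stress frees p53, it binds response elements near its target genes and raises genes that halt the cell cycle, repair DNA or lead to cell death. Several targets, MDM2 among them, feed back to limit p53 again. Because p53 is mainly controlled through its protein, transcript counts do not show its activity directly.

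The p53 response element is made of 2 decamers, separated by a short spacer or by none. Promoter windows of 300 bases, from 250 bases before to 50 bases after each RefSeq start site (GRCh38.p14), were searched for this element with a spacer of at most 1 base, the C and G of both decamer cores required and up to 3 mismatches over the 20 bases. The element is a palindrome, so a match reads as one on both strands. Such a match lay in a window of 7 of the 25 members with a window (28%) and of 795 of 27305 genes overall (2.91%), or in 8 of 40 member windows (20%) and 837 of 35116 windows overall (2.38%). These 7 are shown because they are the only member windows in which the letters of the known binding element could be found by this search. They stand below 5′ to 3′ on the strand of the gene, with the element in capitals.
MDM2: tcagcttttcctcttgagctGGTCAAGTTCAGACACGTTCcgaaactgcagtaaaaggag
FAS: tcctGGACAAGCCCTGACAAGCCAagcc
GDF15: gcacAGCCATGCCCGGGCAAGAACtc
DDB2: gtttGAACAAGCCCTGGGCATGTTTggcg
AEN: agccGGGCTTGCCCGGGCATGTGGgagc
FDXR: gcccGGGCAGGAGCGGGCTTGCCCtgcg
SESN1: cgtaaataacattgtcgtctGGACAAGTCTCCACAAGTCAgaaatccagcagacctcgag

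The MDM2 element lies at chr12:68808923-68808942 on the plus strand, in an intron by the GENCODE 29 annotation, with its first base 94 bases before a RefSeq start and 2 mismatches. The DDB2 element, at chr11:47214979-47214999 on the plus strand and within an exon, has a spacer of 1 base and 0 mismatches, so it was the closest match of the 7. FAS, at chr10:88991309-88991328 on the plus strand, and AEN, at chr15:88621306-88621325 on the plus strand, are exonic by GENCODE and have 2 mismatches each. GDF15, at chr19:18386186-18386205 on the plus strand, and FDXR, at chr17:74872996-74873015 on the minus strand, are also exonic and have 3 mismatches each. The SESN1 element, at chr6:109009018-109009037 on the minus strand, is intronic and has 3 mismatches. A match describes letters in a window and is not evidence of binding. As given below, 3 of these 7 genes rose in the knockout libraries (MDM2, FAS and GDF15) and 4 fell (AEN, DDB2, FDXR and SESN1), so the genes with a matching window moved in both directions.

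Counts were compared with edgeR's quasi-likelihood test, with p-values adjusted over all 19660 genes that passed the filter on low counts (Benjamini-Hochberg), and genes with an adjusted p below 0.05 were called. All 30 members passed that filter. Levels are CPM after TMM scaling, which corrects for differences in library composition. In the mean of the knockout sets against WT, 19 of the 30 members were higher, 8 were lower and 3 passed in neither direction (70.4% of the called members higher). With plain library totals 17 were higher and 13 lower (56.7% higher). The background was wide: with TMM 77.3% of all tested genes were called, 35.8% higher and 41.4% lower. With library totals 81.8% of all tested genes were called, and their split by direction was not counted. With TMM, 17 of the 19 higher members were higher by at least 2-fold (56.7% of the members, against 23.3% of all tested genes). In the other direction, 2 members were lower by at least 2-fold (6.67%, against 28.7%). The median log2 fold change was 1.37 over the members and -0.13 over all tested genes. In 19 members every knockout library lay above both WT libraries, in 8 every one lay below, and in 3 the groups overlapped. SESN2 was among the first 19 without being called, and PPM1D was called while its groups overlapped. Among all tested genes 37.2% lay above in the same way, 43.3% below, and 80.4% did not overlap, so lack of overlap alone does not set the members apart.

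The changes of the members left a wide gap in the middle. The smallest of the 17 larger increases was that of MDM2, at a log2 fold change of 1.18, and the next member down was PPM1D, at 0.27. All 17 lay above the upper quartile of all tested genes (0.98), while only CYFIP2 and CCNG1 lay below the lower quartile (-1.41). The 11 members between the quartiles therefore changed within the range of the middle of all genes.

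**Figure D1:**
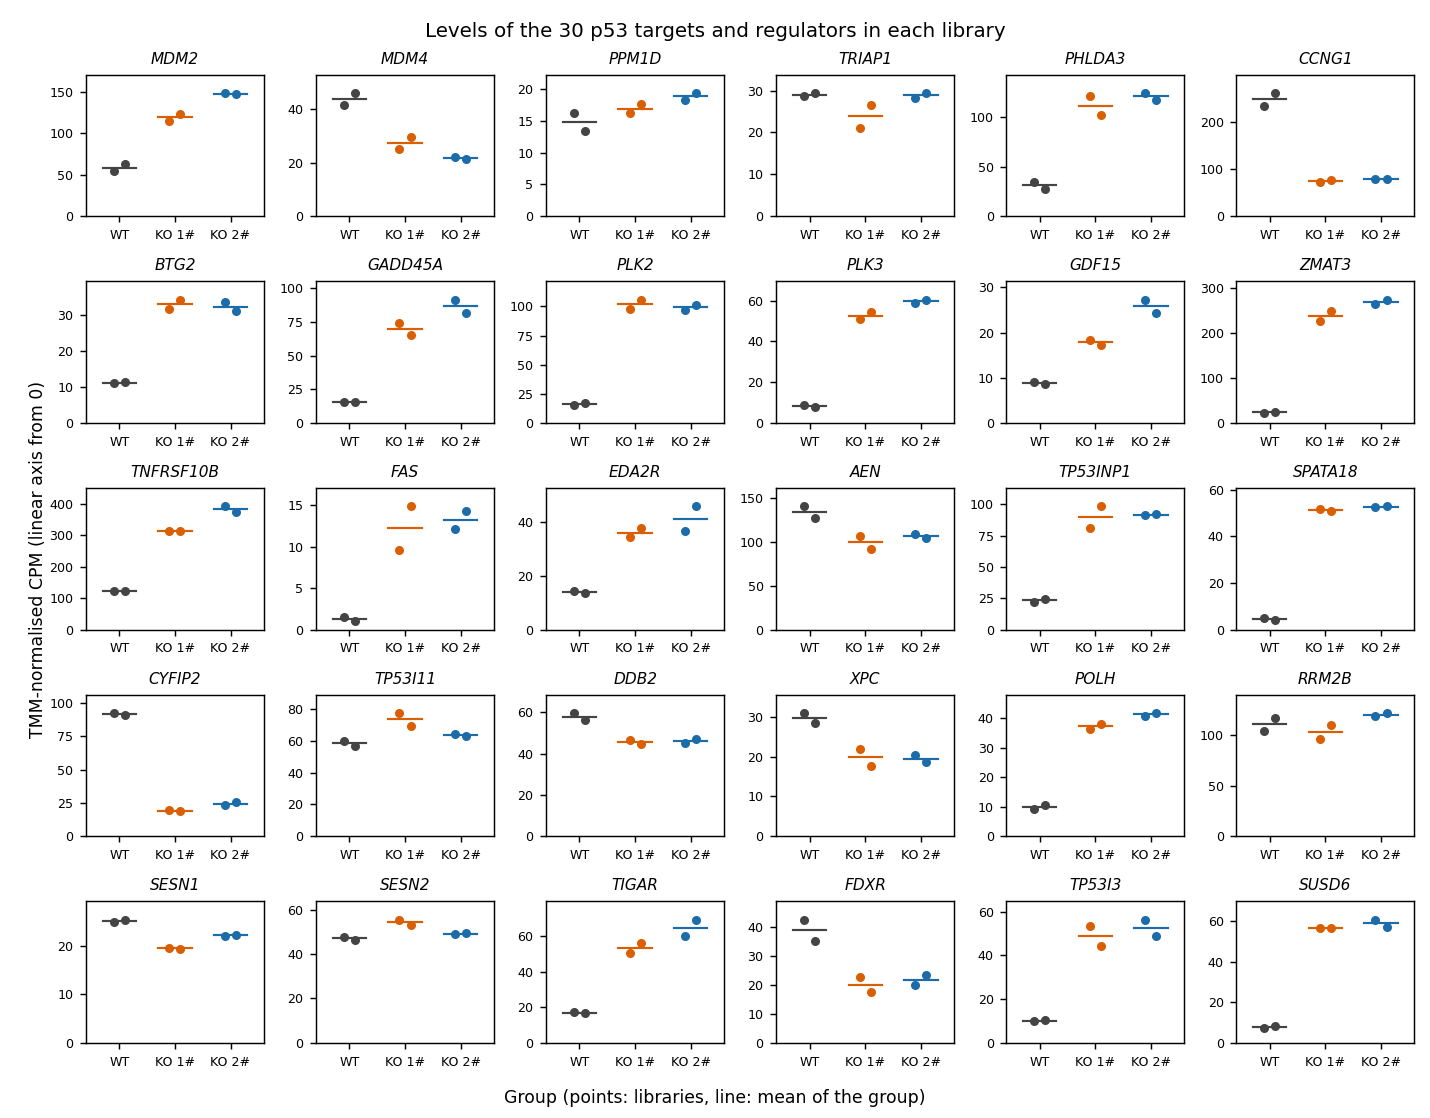
Level of each of the 30 members in each library, in TMM-normalised CPM on linear axes from 0, with 1 panel per gene, points for the libraries and a line for the mean of the 2 libraries of each group. In 19 panels the knockout libraries all sit above WT and in 8 all sit below, with MDM2 rising from 58.5 to 133 CPM and CCNG1 falling from 247 to 75.9 CPM on average.

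The 6 genes classed as regulators of p53 and feedback did not move as a group, with 3 higher, 2 lower and 1 not called. PPM1D, among the 3 higher, changed direction with library totals. MDM2 (chromosome 12, 68808176 to 68850686, plus strand), the ligase that degrades p53, was at 54.7 and 62.3 CPM in the WT libraries, 115 and 123 CPM in KO 1#, and 148 and 146 CPM in KO 2#. Both KO 2# libraries lay above both KO 1# libraries, and all 4 lay above WT. The log2 fold change of the knockout mean was 1.18 (SE 0.07, adjusted p = 4.432e-11), or 2.26-fold. MDM4 (chromosome 1, 204516379 to 204558120, plus strand), which is related to MDM2 and blocks p53 without degrading it, went the opposite way. It was at 41.7 and 46.1 CPM in WT, 25.3 and 29.6 CPM in KO 1#, and 21.99 and 21.6 CPM in KO 2#, and fell by 0.84 on the log2 scale (SE 0.09, adjusted p = 1.101e-07). Per kilobase of merged exons, the level of MDM2 was 4.40 ± 0.404 and that of MDM4 3.98 ± 0.282 CPM in WT (SD, n = 2), against 10.02 ± 1.27 and 2.24 ± 0.338 CPM in the knockout libraries (SD, n = 4). The levels of these partners were thus close to each other in WT and far apart in the knockout libraries.

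PHLDA3, which competes with the kinase AKT for membrane lipids and so restrains it, rose from 34.7 and 27.4 CPM in WT to 121 and 102 CPM in KO 1# and 124 and 117 CPM in KO 2#. Its log2 fold change was 1.90 (SE 0.10, adjusted p = 3.696e-12), with no overlap between WT and knockout libraries. CCNG1 (chromosome 5, 163437569 to 163446151, plus strand) encodes cyclin G1, a p53 target that acts through a phosphatase on MDM2. Its level was 233 and 260 CPM in WT, 71.4 and 76.6 CPM in KO 1#, and 77.5 and 78.2 CPM in KO 2#. It fell by 1.70 on the log2 scale (SE 0.06, adjusted p = 2.614e-14), or 3.25-fold, and was among the most closely repeated changes of the list. PPM1D, the phosphatase WIP1 that switches off damage signalling to p53, was at 16.2 and 13.5 CPM in WT and between 16.2 and 19.4 CPM in the 4 knockout libraries. Its change of 0.27 (SE 0.11, adjusted p = 0.0413) was close to the threshold, turned to -0.47 with library totals, and was not called without WT replicate 2 (0.14, adjusted p = 0.428), without KO 1# replicate 2 (adjusted p = 0.0577) or without KO 2# replicate 2 (adjusted p = 0.0863). TRIAP1, a small protein that protects damaged cells from apoptosis, was at 28.6 and 29.4 CPM in WT, 21.1 and 26.6 CPM in KO 1#, and 28.3 and 29.4 CPM in KO 2#. Its log2 fold change of -0.14 (SE 0.10, adjusted p = 0.189) did not pass, but it was called lower without KO 1# replicate 2 (-0.23, adjusted p = 0.0288) and with library totals (-0.88).

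The 6 genes classed under cell cycle control and growth arrest all rose (median log2 fold change 2.48), where 35.8% of all tested genes were called higher. This count depends on the classes used here, in which the cyclin gene CCNG1, which fell, stands with the regulators. The summed level of the 6 was 82.1 and 84.0 CPM in WT and 499.5 to 574.1 CPM in the knockout libraries. ZMAT3 (chromosome 3, 179017223 to 179072279, minus strand), an RNA-binding zinc finger protein that acts in growth suppression downstream of p53, rose most among them. It was at 22.5 and 23.85 CPM in WT, 226 and 248 CPM in KO 1#, and 266 and 274 CPM in KO 2#. The increase was 10.9-fold (log2 fold change 3.45, SE 0.07, adjusted p = 1.321e-17). The polo-like kinases PLK2 and PLK3, stress-responsive relatives of the mitotic kinase PLK1, also rose. PLK3 was at 8.56 and 7.83 CPM in WT, 50.9 and 54.3 CPM in KO 1#, and 58.8 and 60.4 CPM in KO 2#, with a change of 2.77 on the log2 scale (SE 0.09, adjusted p = 8.604e-15). PLK2 was at 15.1 and 16.7 CPM in WT, 97.7 and 106 CPM in KO 1#, and 97.1 and 101 CPM in KO 2#, with a change of 2.66 (SE 0.08, adjusted p = 2.34e-15).

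GADD45A, a stress sensor that takes part in arrest between S phase and mitosis and in DNA repair, was at 15.7 and 15.8 CPM in WT, 74.2 and 65.1 CPM in KO 1#, and 91.6 and 81.7 CPM in KO 2#. The knockout libraries were 4.92-fold higher on average (log2 fold change 2.30, SE 0.09, adjusted p = 6.387e-14). BTG2, an antiproliferative gene whose protein binds the deadenylase complex, was at 11.1 and 11.3 CPM in WT and between 31.2 and 34.4 CPM in the 4 knockout libraries, so its knockout libraries spread little. Its log2 fold change was 1.55 (SE 0.10, adjusted p = 1.014e-10). GDF15, a secreted stress cytokine, was at 9.12 and 8.52 CPM in WT, 18.4 and 17.2 CPM in KO 1#, and 27.3 and 24.4 CPM in KO 2#. It rose the least of the 6 (log2 fold change 1.28, SE 0.11, adjusted p = 1.072e-08), and its knockout sets did not overlap each other.

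Of the 8 genes of death receptors and apoptosis, 6 rose and 2 fell (median log2 fold change 1.47). SPATA18 (chromosome 4, 52051331 to 52097292, plus strand), whose protein takes part in the quality control of mitochondria, had the largest change of the 30 members in the mean of the sets, within the error of that of ZMAT3, which was larger in KO 2# (3.54 against 3.53). It was at 4.91 and 4.21 CPM in WT, and its 4 knockout libraries lay close together, between 50.9 and 52.8 CPM. The increase was 11.4-fold, or 3.51 on the log2 scale (SE 0.10, adjusted p = 1.469e-15). FAS (chromosome 10, 88990582 to 89015785, plus strand), the death receptor for FAS ligand, was at 1.57 and 1.08 CPM in WT, 9.58 and 14.9 CPM in KO 1#, and 12.1 and 14.3 CPM in KO 2#. It had the fewest counts of the list, with 82 and 52 in the WT libraries, and the widest error (log2 fold change 3.25, SE 0.23, adjusted p = 3.657e-10). ACTA2, on the opposite strand, overlaps 8.93% of the exon bases of FAS and had 25 and 20 counts in WT and 613 to 1057 in the knockout libraries. The use of strand in counting is not given in the sources used here, so reads from such a pair may not have been told apart.

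TNFRSF10B, the death receptor DR5 that binds TRAIL, stood at 124 and 123 CPM in WT, 313 and 313 CPM in KO 1#, and 392 and 375 CPM in KO 2#. The 3 groups were clearly apart, and the increase was 1.49 on the log2 scale (SE 0.06, adjusted p = 4.332e-14). TP53INP1, a nuclear protein that promotes p53-dependent apoptosis and autophagy, was at 22.3 and 24.1 CPM in WT and 81.4 to 98.2 CPM in the knockout libraries (log2 change 1.97, SE 0.09). EDA2R, a receptor of the tumour necrosis factor family that binds an isoform of ectodysplasin, was at 14.4 and 13.8 CPM in WT and 34.5 to 45.8 CPM in the knockout libraries (log2 change 1.45, SE 0.11). Both rose with no overlap between WT and knockout libraries. TP53I11, a membrane protein first described as p53-induced, was at 59.9 and 56.8 CPM in WT, 77.3 and 69.5 CPM in KO 1#, and 64.3 and 62.9 CPM in KO 2#. Its increase was small (0.23, SE 0.07, adjusted p = 0.00753), turned to -0.51 with library totals, and was not called without WT replicate 2 (0.19, adjusted p = 0.0871). TSPAN18, on the opposite strand, overlaps 1.01% of its exon bases and had 1450 and 1534 counts in WT and 110 to 326 in the knockout libraries.

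CYFIP2 (chromosome 5, 157266079 to 157395595, plus strand), a subunit of the WAVE complex that shapes the actin cytoskeleton, fell the most of the 30 members. It was at 92.3 and 91.0 CPM in WT, 19.8 and 18.8 CPM in KO 1#, and 23.3 and 25.4 CPM in KO 2#. The level was 4.23-fold lower in the knockout libraries (log2 change -2.08, SE 0.07, adjusted p = 1.557e-14). ADAM19, on the opposite strand, overlaps 0.59% of its exon bases and rose from 2117 and 1834 counts in WT to between 48562 and 52964 in the knockout libraries, the direction opposite to that of CYFIP2. AEN, an exonuclease that takes part in the breakdown of DNA during apoptosis, was at 141 and 128 CPM in WT and 92.4 to 109 CPM in the knockout libraries. It fell by 0.38 on the log2 scale (SE 0.07, adjusted p = 7.849e-05), with no overlap between the groups.

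**Figure D2:**
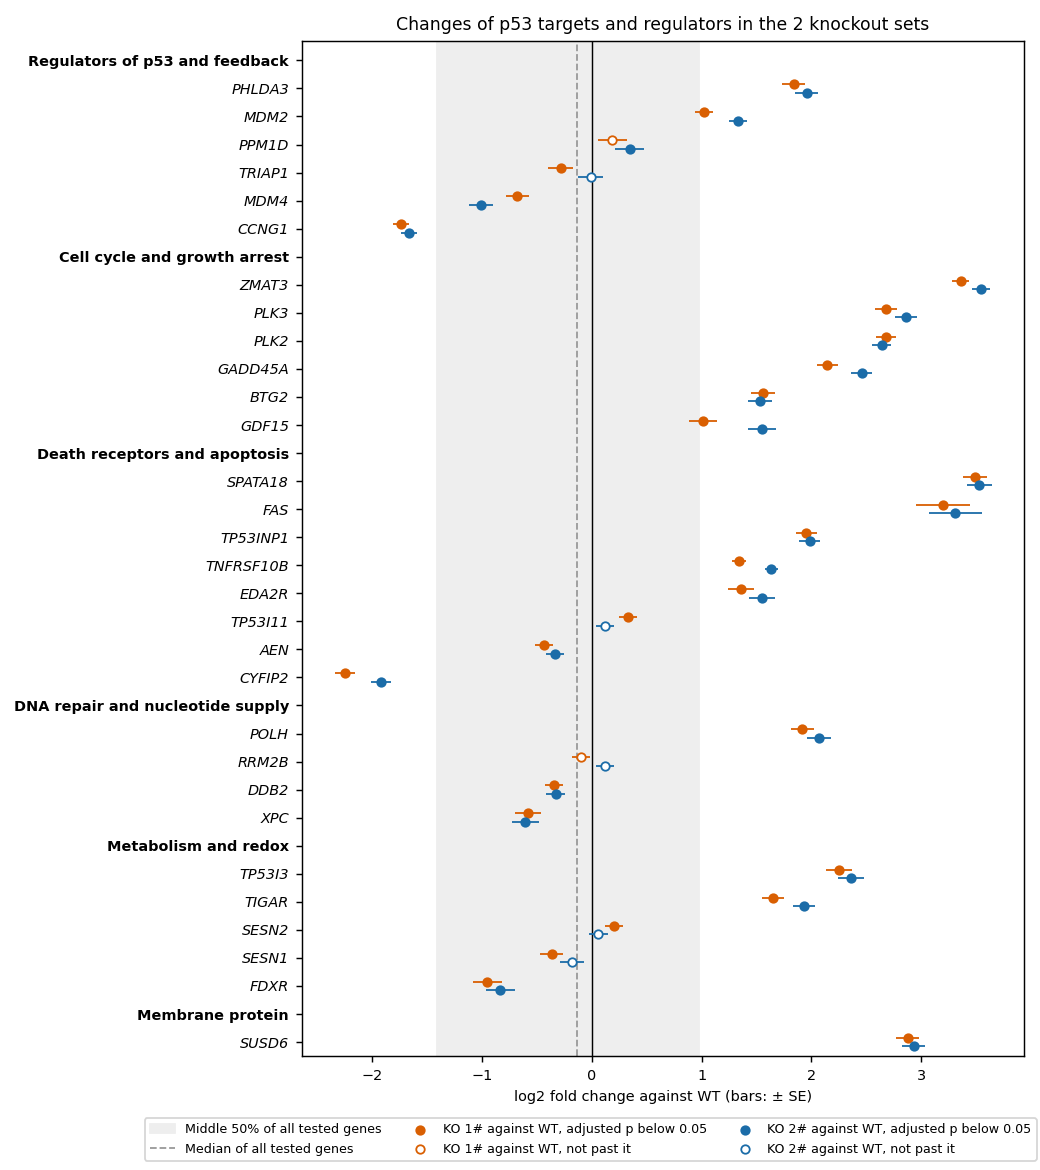
Log2 fold change of each member in KO 1# (orange) and KO 2# (blue) against WT, with standard errors as bars, filled points at an adjusted p below 0.05, and a band and dashed line for the middle 50% and the median of all tested genes in the mean of the knockout sets. The 6 growth arrest genes sit right of the band in both sets, while CYFIP2 and CCNG1 sit left of it.

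DNA repair and nucleotide supply gave 1 gene that rose, 2 that fell and 1 not called. POLH encodes DNA polymerase eta, which copies past ultraviolet lesions. Its level was 9.23 and 10.5 CPM in WT, 36.3 and 38.2 CPM in KO 1#, and 41.0 and 41.8 CPM in KO 2#, an increase of 1.99 on the log2 scale (SE 0.10, adjusted p = 2.493e-12). DDB2 and XPC, the damage-recognition proteins of global nucleotide excision repair, both fell. DDB2 was at 59.7 and 56.3 CPM in WT and 44.9 to 47.3 CPM in the knockout libraries (log2 change -0.34, SE 0.07, adjusted p = 0.0003757). XPC was at 30.9 and 28.5 CPM in WT and 17.8 to 21.99 CPM in the knockout libraries (log2 change -0.59, SE 0.10, adjusted p = 4.917e-05). On the strand opposite XPC, the antisense gene AC093495.1 overlaps 23.8% of its exon bases with at most 67 counts in any library, and LSM3 overlaps 6.63% with 1672 and 1645 counts in WT and 405 to 472 in the knockout libraries. RRM2B, a p53-induced subunit of ribonucleotide reductase that supplies deoxynucleotides, was at 104 and 117 CPM in WT, 96.4 and 110 CPM in KO 1#, and 119 and 122 CPM in KO 2#. Its log2 fold change was 0.01 (SE 0.07, adjusted p = 0.893), or -0.72 with library totals, and the WT libraries lay within the range of the knockout libraries.

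Among the 5 genes of metabolism and redox control, 2 rose, 2 fell and 1 was not called. TP53I3, an oxidoreductase linked to reactive oxygen species, was at 9.998 and 10.5 CPM in WT, 53.4 and 44.2 CPM in KO 1#, and 56.3 and 48.9 CPM in KO 2#. It rose 4.94-fold (log2 fold change 2.31, SE 0.11, adjusted p = 9.066e-13). TIGAR, a phosphatase that lowers glycolytic flux and protects against oxidative stress, was at 17.3 and 16.6 CPM in WT, 50.4 and 55.9 CPM in KO 1#, and 59.9 and 69.1 CPM in KO 2# (log2 fold change 1.79, SE 0.09, adjusted p = 3.535e-12). FDXR, the ferredoxin reductase of mitochondrial electron transfer, went from 42.5 and 35.2 CPM in WT to 22.7 and 17.6 CPM in KO 1# and 20.1 and 23.6 CPM in KO 2#. It fell by 0.89 on the log2 scale (SE 0.11, adjusted p = 1.009e-06), without overlap between the groups.

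The sestrins SESN1 and SESN2 are stress-induced inhibitors of the growth kinase mTORC1. SESN1 was at 24.9 and 25.3 CPM in WT, 19.6 and 19.4 CPM in KO 1#, and 22.1 and 22.3 CPM in KO 2#. The decrease of 0.27 on the log2 scale (log2 fold change -0.27, SE 0.09, adjusted p = 0.0122) was not called without WT replicate 1 (adjusted p = 0.0545) or WT replicate 2 (adjusted p = 0.0776). SESN2 was at 47.9 and 46.3 CPM in WT and 48.9 to 55.4 CPM in the knockout libraries, and its log2 fold change of 0.13 (SE 0.07, adjusted p = 0.0981) did not pass although the groups did not overlap, and it was -0.60 with library totals. SUSD6, a membrane protein reported as a p53 target, stood alone in its class and rose from 7.26 and 8.25 CPM in WT to between 56.8 and 60.7 CPM in the knockout libraries. Its 7.47-fold increase (log2 fold change 2.90, SE 0.10, adjusted p = 5.699e-15) was the fourth largest of the list, after those of SPATA18, ZMAT3 and FAS.

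On the scale of CPM per kilobase of merged exons, which allows levels of different genes to be compared, CCNG1 was the most abundant member in WT at 79.7 ± 6.17 (SD, n = 2). TNFRSF10B (23.9 ± 0.216), AEN (22.3 ± 1.51), TRIAP1 (20.1 ± 0.399) and RRM2B (19.95 ± 1.68) followed, and these last 4 lay within a narrow range. In the knockout libraries TNFRSF10B led at 67.6 ± 8.0 (SD, n = 4), followed by GADD45A at 37.8 ± 5.43 and PHLDA3 at 37.0 ± 3.12. PHLDA3 was the higher of these in both KO 1# libraries and GADD45A in both KO 2# libraries. ZMAT3 at 26.3 ± 2.19 and CCNG1 at 24.5 ± 0.991 came next, with ZMAT3 slightly higher in every knockout library. The least abundant member in WT was FAS at 0.312 ± 0.0805. In the knockout libraries CYFIP2 at 2.08 ± 0.291 and MDM4 at 2.24 ± 0.338 were lowest on average. CYFIP2 was the lower of these in both KO 1# libraries and MDM4 in both KO 2# libraries. The order of the members by level thus differed between the groups, with TNFRSF10B near the top in both.

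Each knockout set was also compared with WT alone. The sets share the WT libraries, so their calls are not independent of each other. In KO 1#, 19 members were higher, 9 lower and 2 not called (73.6% of all tested genes called, 35% higher and 38.7% lower). In KO 2#, 18 were higher, 7 lower and 5 not called (73.7% of all tested genes called, 34.6% higher and 39.1% lower). With library totals both sets gave 17 higher and 13 lower, 56.7% of the called members higher against 67.9% in KO 1# and 72% in KO 2# with TMM. Of all tested genes, 78.1% were called in KO 1# and 78.9% in KO 2# with library totals. The median log2 fold change of the members was 1.18 in KO 1# and 1.54 in KO 2#, beside -0.11 and -0.13 over all tested genes. Calls differed for 5 members, all with small changes. PPM1D was called in KO 2# alone (0.35, adjusted p = 0.0246, against 0.19, adjusted p = 0.208). TRIAP1 was called lower in KO 1# (-0.28, adjusted p = 0.0358) and not in KO 2# (-0.01, adjusted p = 0.957). TP53I11, SESN1 and SESN2 were also called in KO 1# alone, at 0.33, -0.36 and 0.21 against 0.12, -0.18 and 0.06. The difference between the sets itself did not pass the test for any of these 5.

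Tested directly, KO 2# against KO 1# gave 3 members higher, none lower and 27 not called by edgeR. Over all tested genes 3.86% were called, 1.58% higher and 2.28% lower. At an unadjusted p below 0.05, 9 members were higher and 2 lower, and the share of all tested genes at that threshold was not counted. DESeq2 called 5 higher and 0 lower, with 4.99% of all tested genes called. GDF15 was higher in KO 2# by 0.54 on the log2 scale (SE 0.12, adjusted p = 0.0199), MDM2 by 0.31 (SE 0.08, adjusted p = 0.0325) and TNFRSF10B by 0.29 (SE 0.06, adjusted p = 0.00902). MDM2 was not called with library totals (0.26, adjusted p = 0.0841) or when the 20 most abundant genes were left out of those totals (0.28, adjusted p = 0.0622). All 3 are also higher in both sets than in WT. None of these 3 calls held each time a single library was left out. With 2 libraries a set, leaving 1 out also gives every gene less data. A lost call therefore cannot show that the difference came from the library left out. The median difference of the members was 0.12 with all libraries and 0.12 to 0.18 with single libraries left out.

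The largest difference downward was that of MDM4, at -0.33 (SE 0.11, adjusted p = 0.118), and CYFIP2 (0.33, adjusted p = 0.0621) and GADD45A (0.31, adjusted p = 0.0615) lay just outside the threshold. The difference was above 0 for 24 of the 30 members (80%) and for 46.9% of all tested genes, with medians of 0.12 and 0, and for 21 members with library totals. In 16 members both KO 2# libraries lay above both KO 1# libraries, in 3 both lay below, and in 11 the sets overlapped. Over all tested genes 20.4% lay above in this way, 22.4% below, and 42.8% did not overlap. Most of these differences did not pass the test gene by gene, and no test was made over the members together.

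**Figure D3:**
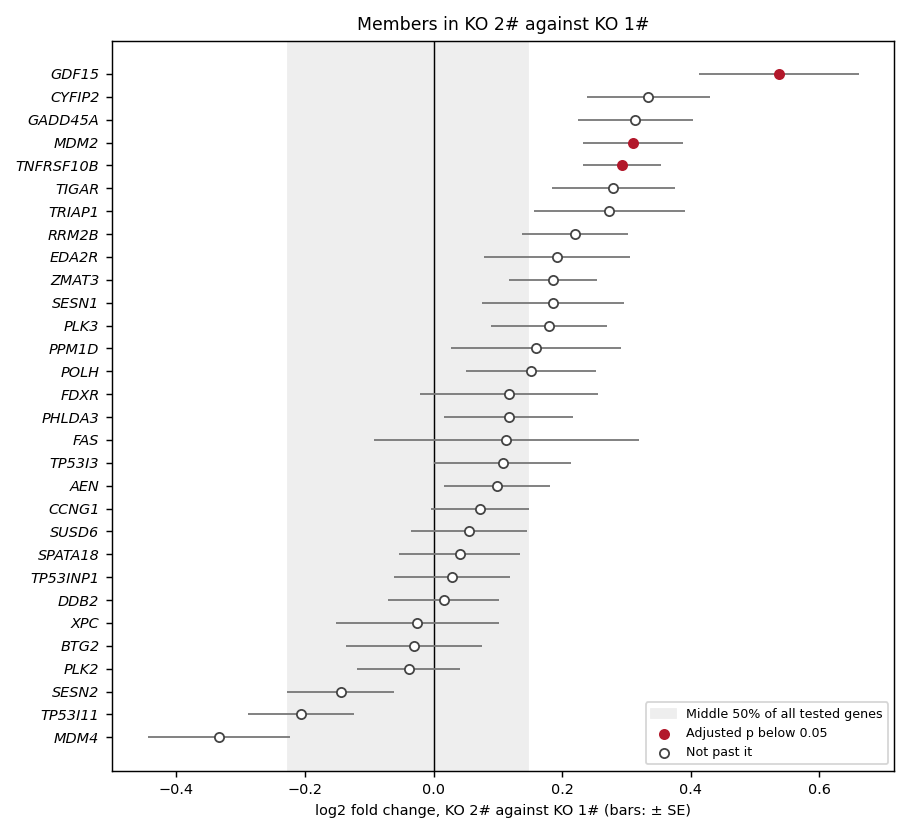
Log2 fold change of each member in KO 2# against KO 1#, in order of size, with standard errors as bars, filled points at an adjusted p below 0.05 and a grey band for the middle 50% of all tested genes. The 3 called members, GDF15, MDM2 and TNFRSF10B, lie between 0.29 and 0.54, and 24 of the 30 points are right of 0.

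How many members were called in each direction depended on the scaling between libraries. The 10 most abundant genes took 6.11% and 6.30% of the counts in WT and 21.6% to 22.7% in the knockout libraries, and the TMM factors were 1.40 and 1.41 in WT against 0.826 to 0.867 in the knockout libraries. With plain library totals in place of TMM, the median of all tested genes moved from -0.13 to -0.86. Library totals without the 20 most abundant genes gave 17 higher and 12 lower (58.6% higher), where 79.3% of all tested genes were called. The same 17 members with at least 2-fold increases with TMM were called higher under all 5 scalings tried. With library totals the members' median was 0.63 on the log2 scale, so not all 17 were 2-fold higher there. MDM4, CCNG1, AEN, CYFIP2, DDB2, XPC, FDXR and SESN1 were lower under all 5 scalings. PPM1D, TP53I11, RRM2B and SESN2 had positive values with TMM and negative ones with library totals, so no direction can be given for these 4.

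**Figure D4:**
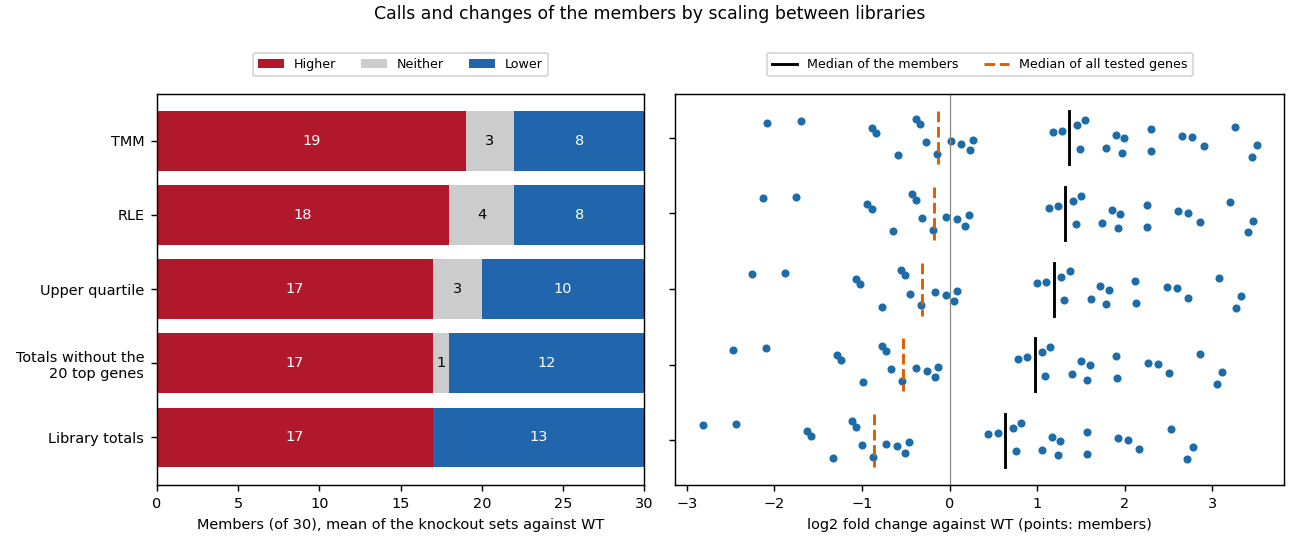
Left, the number of members called higher, lower or in neither direction in the mean of the knockout sets against WT under each of 5 scalings; right, the log2 fold change of each member (points) with the median of the members (solid line) and of all tested genes (dashed line). The members' median moves from 1.37 with TMM to 0.63 with library totals, and the median of all tested genes moves from -0.13 to -0.86.

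In a list of 30 genes of the p53 family and other regulators, 8 of the 29 tested were higher, 16 were lower and 5 passed in neither direction (median -0.35), or 3 higher and 23 lower with library totals. CDKN2A, whose locus encodes the cyclin-dependent kinase inhibitor p16 and the MDM2 inhibitor ARF, had 26 and 15 counts in WT and rose from 0.405 ± 0.131 (SD, n = 2) to 186 ± 34.1 CPM (SD, n = 4), a log2 fold change of 8.80. A gene count does not tell p16 from ARF, and CDKN2B-AS1 lies over part of its exons on the opposite strand. SETD7, a lysine methyltransferase, rose by 3.48 on the log2 scale. TP73, a member of the p53 family, and CHEK2, a checkpoint kinase that phosphorylates p53, fell by 7.19 and 3.10, with 0 to 4 counts of TP73 in the knockout libraries.

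In a list of 58 other p53 targets, 57 were tested, of which 32 were higher, 18 were lower and 7 passed in neither direction, with a median of 0.49. This split turned with plain library totals, which gave 19 higher and 29 lower with a median of -0.24. CDKN1A, which encodes the cyclin-dependent kinase inhibitor p21, was at 43.0 and 41.4 CPM in WT, 878 and 807 CPM in KO 1#, and 1113 and 1063 CPM in KO 2#. Its log2 fold change was 4.50 (SE 0.07, adjusted p = 1.437e-19), and KO 2# exceeded KO 1# by 0.37 (adjusted p = 0.00123). TNFRSF10D, a decoy receptor for TRAIL, rose by 4.61 on the log2 scale. SFN, an epithelial 14-3-3 protein, fell from 4.79 CPM in WT to 0.0648 CPM, with 0 to 4 counts in each knockout library. Genes of mitochondrial apoptosis in the list moved in different directions. BAX, a pore-forming protein, was at 113 ± 8.11 CPM in WT and 122 ± 5.94 CPM in the knockout libraries (log2 change 0.10, adjusted p = 0.164, and -0.63 with library totals), and the BH3-only genes BBC3 and PMAIP1 fell by 0.53 and 2.69. BCL2L1, whose main product protects from apoptosis, rose by 1.64 (adjusted p = 4.865e-13), and APAF1, the core of the apoptosome, rose by 0.46 (adjusted p = 2.280e-05) but was at -0.28 with library totals. These 5 genes are named outside the rule for other genes and were chosen after their values had been seen.

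The cell cycle genes that are known to fall after p53 activation, through p21 and the DREAM complex, were lower throughout. Of all tested genes 41.4% were called lower, and any part of p53 in this fall was not tested. All 16 tested of 17 listed fell (median -3.24), with BUB1B, a spindle checkpoint kinase, at -4.39 and TOP2A, the topoisomerase of dividing cells, at -3.90, and their summed level was 2357 and 2412 CPM in WT and 237 to 324 CPM in the knockout libraries. In KO 2# against KO 1#, 11 of the 16 were lower and none was higher, where 2.28% of all tested genes were called lower. Of 13 genes of the DREAM and MuvB complexes, 3 rose, 9 fell and 1 passed in neither direction, against 35.8% of all tested genes higher and 41.4% lower. With library totals 1 was higher and 10 were lower. Among the 3 that rose was a gene with only 10 and 18 counts in WT. MYBL2 (-4.16) and FOXM1 (-3.07), the activating partners of MuvB in dividing cells, fell most.

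**Figure D5:**
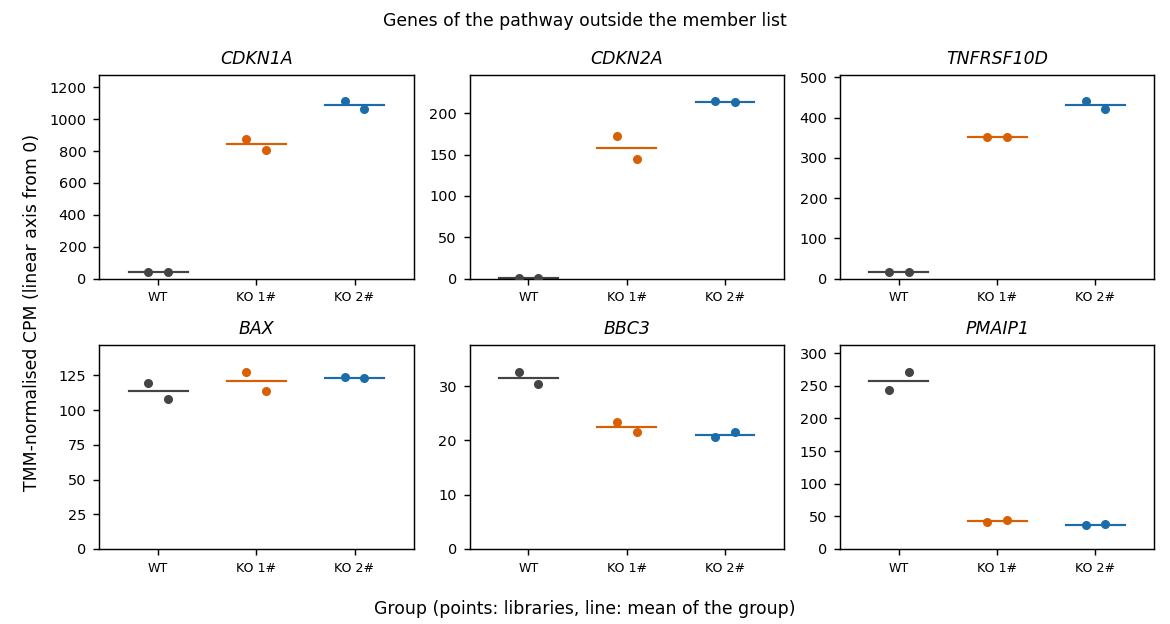
Levels of 6 pathway genes outside the 30 members in each library, in TMM-normalised CPM on linear axes from 0, with points for libraries and lines for group means. CDKN1A, CDKN2A and TNFRSF10D are higher in all 4 knockout libraries, PMAIP1 and BBC3 are lower, and BAX overlaps between the groups.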

How the data were processed

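Gene expression was measured by RNA-seq in 6 H1 libraries, 2 per group. The authors deposited a table of raw read counts per gene, not normalised. Per the submitters' processing notes, the tools named were DESeq 1.18.1, HTSeq 0.6.0, HISAT2 2.0.4 and SAMtools 1.3.1, with GRCh38/hg38, and roles are not stated there. The sources used here do not name the gene annotation or the strand setting. Of 58395 gene identifiers, 58275 were found in GENCODE 29, which gave positions, lengths and overlaps. Promoter windows came from RefSeq (GRCh38.p14).

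The counts were fitted in R 4.3.3 with edgeR 4.0.16: TMM scaling, genes kept at the default expression filter with a minimum count of 10, 1 robust quasi-likelihood fit of the 3 groups with 3 residual degrees of freedom, and Benjamini-Hochberg adjustment over 19660 genes. The code was tested on simulated counts. Totals ran from 33421785 to 38098779 counts, which leaves little counting error for all members but FAS. The same-group libraries differed by more than sampling noise (chi-square per degree of freedom 4.18 to 10.5), so none was counted as a duplicate.

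Any of the 30 members could be named. Of other genes, BRPF1, CDKN1A, marker genes and up to 4 called genes of each list with the largest change and an average log2 CPM of at least 1 were named; some of these are not reported here. The members and lists were chosen with earlier results of these data known. Other scalings, DESeq2 1.42.0, other filters and thresholds, a replicate block, fits of fewer groups and leaving out each library were tried. For genes and lists outside the members, the scalings were tried after seeing the data.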

Additional observations from a re-analysis of the deposited data

Results flagged for a closer look

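In 3 members the difference between the knockout sets passed the test of that difference (KO 2# against KO 1#, edgeR's quasi-likelihood test, adjusted over all genes tested). GDF15, the stress cytokine, was higher in KO 2# by 0.54 on the log2 scale (adjusted p = 0.0199). MDM2, the ligase that degrades p53, was higher by 0.31 (adjusted p = 0.0325). TNFRSF10B, the TRAIL receptor DR5, was higher by 0.29 (adjusted p = 0.00902). In each of the 3, both KO 2# libraries lay above both KO 1# libraries, as they did in 20.4% of all tested genes. None of these calls held each time a single library was left out, which also gives every gene less data. MDM2 was also not called with library totals or with totals without the 20 most abundant genes.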

How the results depend on the processing

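In the comparisons with WT, 17 members were higher in the mean of the knockout sets under each of the 15 settings of that comparison, and 7 were lower (MDM4, CCNG1, AEN, CYFIP2, DDB2, XPC and FDXR). With library totals, 13 members were lower in the mean and 13 in KO 2#, and without the 20 most abundant genes 12 were lower in KO 2#. The share of all tested genes called in either direction was 81.8%, 78.9% and 76.1% in these 3 cases. The median log2 fold change of the members was 0.63 with totals, 0.97 without the 20 most abundant genes and 1.19 with the upper quartile in the mean of the sets. In KO 1# it was 0.47, 0.80 and 1.01 under these 3 scalings and 1.13 with RLE factors or DESeq2. In KO 2# it was 0.78, 1.13 and 1.36, 1.502 with RLE factors or DESeq2, and 1.48 to 1.55 when single libraries were left out. With library totals the values changed sign in the mean for PPM1D (-0.47), TP53I11 (-0.51), RRM2B (-0.72) and SESN2 (-0.60), in KO 1# for PPM1D (-0.52), TP53I11 (-0.38) and SESN2 (-0.50), and in KO 2# for PPM1D (-0.41), TP53I11 (-0.63), RRM2B (-0.64) and SESN2 (-0.70). Without the 20 most abundant genes they did so in the mean for PPM1D (-0.13), TP53I11 (-0.17), RRM2B (-0.38) and SESN2 (-0.26), in KO 1# for TP53I11 (-0.047) and SESN2 (-0.17), and in KO 2# for PPM1D (-0.065), TP53I11 (-0.29), RRM2B (-0.29) and SESN2 (-0.35), and with the upper quartile for RRM2B in the mean (-0.17). These scalings shift all genes by construction.

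In KO 2# against KO 1#, the count of higher members was 1 at an adjusted p below 0.01, 2 with library totals or totals without the 20 most abundant genes (MDM2 lost), 5 with RLE factors, with DESeq2 or with only the groups compared, and 0 to 7 when single libraries were left out, and the count of lower members was then 0 to 1. A group left with a lone library was assumed to vary like the others. Without KO 2# replicate 1, where a lone library stood for KO 2#, the median difference of the members was 0.18. The median was 0.067 with totals, 0.085 without the 20 most abundant genes and 0.12 to 0.18 with single libraries left out. Replicate numbers share no stated source, and deviations of same-numbered libraries correlated at 0.0110 to 0.0336, so the numbers were not taken to pair them. With a replicate block 8 members were higher and 1 lower. Over all tested genes the share called also rose, from 3.86% in the main fit to 8.31% with the block. It was 3.89% with RLE factors, 4.99% with DESeq2 and 6.12% with only the groups compared. Of 1770 values of single members under alternatives, 1676 kept their call, 35 gained one, 37 lost one and 22 reversed. A reversed value changed sign and passed the threshold in the main fit, in the alternative or in both. Among the 1676, 33 changed sign without passing the threshold in either setting. The cause of these changes was not tested. Depth limits FAS alone among the members, with 52 counts in 1 WT library.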
